A study of Homo sapiens with 2 samples.

Results

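High-mitochondrial barcodes are droplets in which more than 20% and at most 50% of the counted molecules (UMIs) came from the mitochondrial genome, and here they are set against low-mitochondrial barcodes, at or below 20%. Both classes needed a clear pair of hashtags, with the second highest of hashtags HTO2 to HTO9 at 20 counts or more and at least 4 times the third, and 500 genes or more. Of 9083 barcodes, 7485 had a clear pair and 7071 of these had enough genes, of which 2962 were high-mitochondrial, 2994 were low-mitochondrial and 1115 were above 50%. All comparisons were made within a hashtag pair and on nuclear genes, with the 13 mitochondrially encoded genes left out.

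The cells came from 13 tumours of OVCAR5, an established human ovarian carcinoma line carrying a reporter that senses interferon gamma (IFNg), grown in NSG-B2m-/- mice. Of the tumours, 8 were injected with cytokine: tumour necrosis factor alpha (TNFa) alone at 10 ng/ml in 3 tumours and together with 100 ng/ml IFNg in 2, all harvested at 6 h, or 100 ng/ml IFNg alone, harvested at 24 h in 2 tumours and at 48 h in 1. The 5 unexposed tumours were split over the same times, with 2 at 6 h, 2 at 24 h and 1 at 48 h. The hashtagged cells were pooled, CFP+ bystander tumour cells were sorted from the pool, and they were run as 1 droplet library. The 13 hashtag pairs are not mapped to tumours or treatments in the sources used here, so a pair stands only for a separately tagged population, and p-values measure the spread between these populations within 1 library. The treatment fields of the labels name 1 condition for each library, which is at odds with the description of the pool.

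Mitochondrial transcripts are made and kept inside mitochondria, whereas nuclear transcripts are spread over the nucleus, the cytosol and the surface of the endoplasmic reticulum. The share of mitochondrial transcripts in a droplet is widely used to set aside damaged cells, because a torn plasma membrane lets cytosolic RNA escape while organelles and the nucleus stay behind. The same share can also be high in intact cells with many mitochondria or little other RNA. Long noncoding RNAs such as MALAT1 and NEAT1 stay in the nucleus, and transcripts of secreted and membrane proteins are translated on the endoplasmic reticulum.

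The group was chosen by its mitochondrial share, so that share, the depth and the number of genes are given as a description. High-mitochondrial barcodes held a median of 4032 nuclear UMIs, against 7376.5 in low-mitochondrial barcodes. Their mitochondrial UMIs ran the other way, with a median of 1663 in high-mitochondrial and 1265 in low-mitochondrial barcodes. Barcodes just past the 20% limit, up to 22%, numbered 495, and those just inside it, from 18% to 20%, numbered 560. The share of high-mitochondrial barcodes among both classes was lowest in HTO4+HTO7, at 33.7% (exact Clopper-Pearson 95% interval 29.1% to 38.4%), and highest in HTO3+HTO6, at 69.3% (64.6% to 73.8%). A pair had 99 to 445 high-mitochondrial barcodes with 468084 to 2243039 nuclear UMIs, and 110 to 507 low-mitochondrial barcodes with 659568 to 4330324. Intervals on counts cover counting error only. In counts summed over barcodes, fewer barcodes that express a gene and less of its RNA per barcode cannot be told apart.

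**Figure D1:**
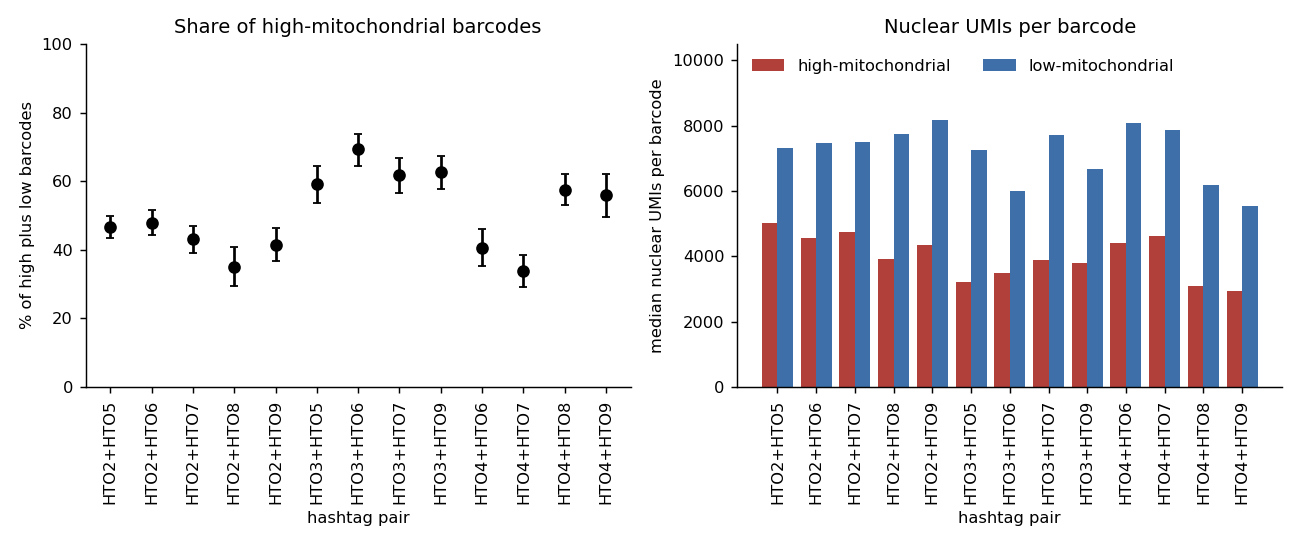
Left, the share of high-mitochondrial barcodes among high-mitochondrial plus low-mitochondrial barcodes (%, with exact 95% intervals) in each of the 13 hashtag pairs. Right, median nuclear UMIs per barcode in high-mitochondrial (red) and low-mitochondrial (blue) barcodes, where the high-mitochondrial bar is the shorter one in every pair, at 2925 to 5025 against 5539.5 to 8177.

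Nuclear counts were summed per pair and class and tested with the pair as a block (edgeR's quasi-likelihood test, Benjamini-Hochberg adjustment, called at an adjusted p below 0.05). Of 9129 genes tested, 2284 (25%) were higher and 2326 (25.5%) were lower in high-mitochondrial barcodes, with a median log2 fold change over all genes of 0.01. Changes were mostly small: 23 genes (0.252%) were higher and 89 (0.975%) were lower by 2-fold or more, although without HTO2+HTO5 or HTO2+HTO6 the first count was 35 or 39. The direction was shared by all 13 pairs for 482 of the genes called higher and 762 of those called lower. Levels below are UMIs per 1000000 nuclear UMIs, scaled with TMM factors (CPM), and fold changes are high-mitochondrial over low-mitochondrial.

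Among genes of 20 CPM or more that were higher in every pair, the 5 with the largest increase were annotated as nuclear copies of the mitochondrial 16S ribosomal RNA. Over their transcripts, MTRNR2L12, MTRNR2L8 and MTRNR2L1 were identical to the 16S RNA at 95.04%, 93.0% and 89.0% of aligned bases, so reads of mitochondrial origin can be counted there, and the counts of the copies are uncertain as counts of nuclear RNA. MTRNR2L6 and MTRNR2L10 were less alike, at 84.9% and 82.7%. The short humanin-like reading frames of the 3 most abundant copies are shown beside the 16S stretch they match, since the similarity bears on how their rise is read. Capitals mark bases that differ from the 16S RNA, and all 4 stretches come from GENCODE 29 transcripts (GRCh38).
16S RNA, chrM:2633-2704, plus strand: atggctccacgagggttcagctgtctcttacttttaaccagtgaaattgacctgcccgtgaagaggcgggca
MTRNR2L12, chr3:96617202-96617273, minus strand: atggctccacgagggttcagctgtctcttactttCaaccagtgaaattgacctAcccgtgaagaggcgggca
MTRNR2L8, chr11:10508155-10508226, minus strand: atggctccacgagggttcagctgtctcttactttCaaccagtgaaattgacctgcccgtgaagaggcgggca
MTRNR2L1, chr17:22524062-22524133, plus strand: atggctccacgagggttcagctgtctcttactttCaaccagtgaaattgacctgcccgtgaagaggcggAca
Over these 72 bases, MTRNR2L8 differed from the 16S RNA at 1 base, and MTRNR2L12 and MTRNR2L1 differed at 2 bases each. MTRNR2L6 and MTRNR2L10, whose stretches are not shown, differed at 8 and 11 bases.

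MTRNR2L12 had a lowest, median and highest pair level of 4605, 5972 and 8529 CPM in high-mitochondrial barcodes, against 1758, 2066 and 3116 CPM in low-mitochondrial barcodes. The classes did not overlap, and the log2 fold change was 1.48 (SD of the pair ratios 0.13, n = 13). The classes were chosen by their mitochondrial share, and mitochondrial reads can be counted in these copies. The rise of the copies is therefore given as a description, without a p-value. MTRNR2L8 (1.47), MTRNR2L10 (1.39), MTRNR2L1 (1.34) and MTRNR2L6 (1.25), given as log2 fold changes, were also higher in 13 of 13 pairs each. These 5 genes were the copies that passed the filter on low counts, while 6 others were too low to test. Counts of the 16S RNA itself were not used here.

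Nuclear long noncoding RNAs were the list that rose most. MALAT1, an abundant RNA of nuclear speckles encoded at chr11:65497688-65506516, made up 6.94% of nuclear UMIs in high-mitochondrial barcodes and 3.37% in low-mitochondrial barcodes (means over pairs). Its lowest, median and highest pair levels were 57814, 69045 and 85876 CPM in high-mitochondrial barcodes, against 26617, 34622 and 44745 CPM in low-mitochondrial barcodes, so that the classes did not overlap. The log2 fold change was 0.99 (edgeR, adjusted p = 2.27e-25), higher in 13 of 13 pairs.

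NEAT1, which builds paraspeckles and lies at chr11:65422774-65445540, averaged 4336 ± 695 CPM in high-mitochondrial barcodes and 2423 ± 406 CPM in low-mitochondrial barcodes (SD, n = 13), a log2 fold change of 0.84. FTX averaged 258 ± 54.1 CPM in high-mitochondrial and 129 ± 17.9 CPM in low-mitochondrial barcodes, at a log2 fold change of 0.97. KCNQ1OT1, the antisense RNA of an imprinted locus, had a log2 fold change of 0.60 and was higher in 12 of 13 pairs. In all, 7 of the 9 tested members rose and 2 fell, the hosts of microRNAs MIR4435-2HG (-0.34) and MIR22HG (-0.29), with a list median of 0.54, against 25% higher and 25.5% lower among all genes tested. Among all 342 long noncoding genes tested, 54.7% were called higher and 7.02% lower, with a median of 0.35, against 23.8% and 26.2% of 8776 protein-coding genes.

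Transcripts for the cytosolic machinery fell together, each by a small amount. Of 79 cytosolic ribosomal protein genes, 78 fell and none rose, against 25.5% lower and 25% higher among all genes tested. Their median log2 fold change was -0.25. Their summed level was 137313 ± 12743 CPM in high-mitochondrial barcodes and 162687 ± 13122 CPM in low-mitochondrial barcodes (SD, n = 13), and lower in 13 of 13 pairs. RPL13, a large-subunit protein, averaged 5679 CPM in high-mitochondrial and 6613 CPM in low-mitochondrial barcodes, at a log2 fold change of -0.22.

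Translation factors fell in 16 of 18 genes and rose in 1 (median -0.28), where 25.5% of all genes fell and 25% rose. EEF1A1, which brings aminoacyl-tRNA to the ribosome, averaged 2346 CPM in high-mitochondrial and 2936 CPM in low-mitochondrial barcodes. Nuclear transcripts for proteins that mitochondria import were lower too. Mitochondrial ribosomal proteins fell in 45 of 51 genes (median -0.31) and nuclear-encoded respiratory chain subunits fell in 65 of 74 (median -0.23), with none higher in either list. NDUFA4, of the respiratory chain, averaged 881 CPM in high-mitochondrial and 1019 CPM in low-mitochondrial barcodes, whereas NDUFA13 was not called, at 832 and 825 CPM (log2 fold change 0.01).

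Among soluble enzymes, 21 of 26 glycolytic and cytosolic genes fell and none rose (median -0.38), against 25.5% and 25% of all genes. GAPDH, a glycolytic enzyme, averaged 2183 CPM in high-mitochondrial and 3173 CPM in low-mitochondrial barcodes, a log2 fold change of -0.54 (edgeR, adjusted p = 3.24e-15) that was lower in 13 of 13 pairs. Of the constitutive proteasome, 30 of 31 genes fell (median -0.37). Actin, tubulin and thymosin genes fell in 21 of 23 (median -0.44), 2 of them by 2-fold or more, against 0.975% of all genes. VIM, the intermediate filament protein vimentin, averaged 1683 ± 233 CPM in high-mitochondrial and 2896 ± 359 CPM in low-mitochondrial barcodes (SD, n = 13), at a log2 fold change of -0.79. In these lists no gene was called higher by edgeR except 1 translation factor, none by DESeq2 except 1 translation factor, and none at an unadjusted p below 0.05 except that gene.

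Keratins, the intermediate filaments of epithelia, fell in 4 of 5 tested genes. KRT7, at chr12:52232520-52252186, fell most: its lowest, median and highest pair levels were 33.1, 86.1 and 166 CPM in high-mitochondrial barcodes, against 67.6, 220.1 and 318 CPM in low-mitochondrial barcodes. The ranges overlapped, but within each pair the high-mitochondrial level was the lower one (log2 fold change -1.26; edgeR, adjusted p = 3.88e-18). KRT18 (-0.37) and KRT8 (-0.27) fell by less. The epithelial markers EPCAM (0.20) and CLDN7 (0.23), both membrane proteins, rose. The marker list as a whole split into 3 genes higher and 4 lower of 9 tested, against 25% and 25.5% of all genes.

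**Figure D2:**
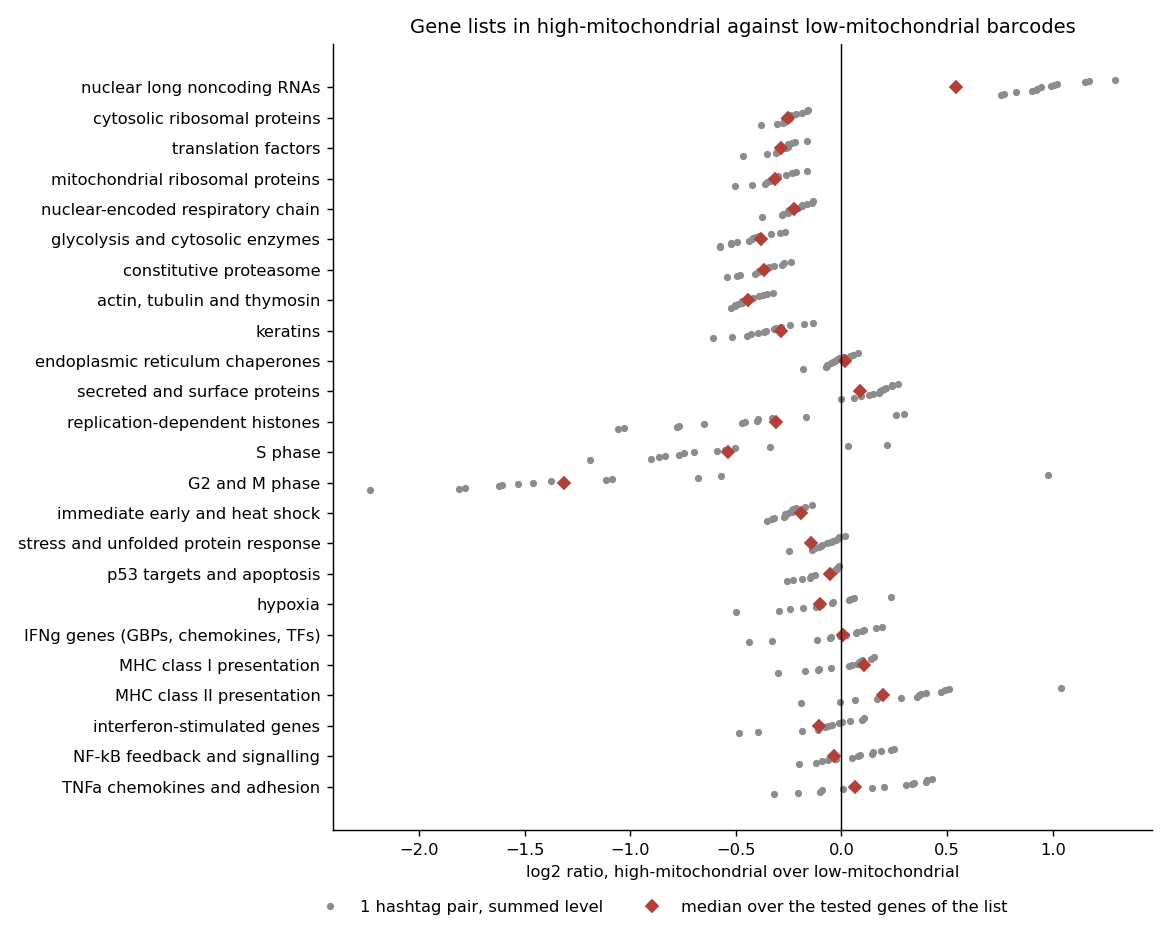
Log2 ratio of high-mitochondrial over low-mitochondrial levels for 24 gene lists. Grey points are the summed level of a list in each of the 13 hashtag pairs and red diamonds the median fold change over its tested genes; the nuclear long noncoding RNAs lie right of 0 in every pair, the lists from ribosomal proteins to keratins lie left of 0 in every pair, and G2 and M phase spreads widest, with 1 pair at 0.98.

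Among proteins of the endoplasmic reticulum, chaperone and translocon genes rose in 8 and fell in 12 of 35 (median 0.02), near the 25% and 25.5% of all genes. HSPA5, the main chaperone of the compartment, rose, with 580 ± 46.4 CPM in high-mitochondrial and 491 ± 49.6 CPM in low-mitochondrial barcodes (SD, n = 13; log2 fold change 0.24, 13 of 13 pairs). HYOU1 (0.34) rose also, while SEC61B (-0.31) and SEC61G (-0.28), small subunits of the translocon, fell. The 8 members that rose had a median transcript length of 4084 bases, against 1134.5 bases in the 12 that fell.

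Secreted and surface proteins of the tumour cells rose in 21 and fell in 7 of 47 tested genes (median 0.09), against 25% and 25.5% of all genes. FN1, the extracellular matrix protein fibronectin, encoded at chr2:215360440-215436172, rose most. Its lowest, median and highest pair levels were 1374, 1933 and 2113 CPM in high-mitochondrial barcodes, against 608, 922 and 1214 CPM in low-mitochondrial barcodes. The classes did not overlap (log2 fold change 1.00; edgeR, adjusted p = 1.22e-21). PSAP, the precursor of lysosomal saposins (0.42), was higher in 13 of 13 pairs, and TM4SF1, a tetraspanin-like membrane protein (-0.57), was lower in 13 of 13. In this list length ran the other way, with a median of 2872 bases in the members that rose and 4290 bases in those that fell.

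The length of the transcript ordered the fold changes across protein-coding genes. In the 20% of genes with the shortest transcripts (305 to 1736 bases), 6.95% of 1756 genes were higher and 57.8% were lower in high-mitochondrial barcodes, with a median log2 fold change of -0.21. In the 20% with the longest (5537 to 34526 bases), 45.6% of 1755 genes were higher and 6.95% were lower, with a median of 0.20. With every gene of the lists left out, the medians of the shortest and the longest 20% were -0.20 and 0.21. Other measures of gene size ordered the fold changes too. The lowest and highest 20% had medians of -0.19 and 0.21 by coding length, -0.15 and 0.17 by genomic span, and -0.10 and 0.17 by exon number. Which of these features the order belongs to was not tested. The same split by GC content gave medians between -0.03 and 0.04. At 2000 to 6000 nuclear UMIs per barcode in both classes, the shortest and the longest 20% had medians of -0.19 and 0.20. The ribosomal, respiratory and proteasome lists were themselves made of short transcripts, with list medians of 1004 to 1580 bases.

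Besides the genes above, those with the largest change that kept their direction in all 13 pairs were a mixed set. They were picked for their size among genes of 20 CPM or more in either class, and GABRE, Z83843.1, PRTG, L3MBTL1, PKDCC, PABPC1L, CALB2, PAEP, UBE2T, CDCA8 and CKAP2L reached that level only in the class where they were high, so the filter fixes part of their fold. Higher were GABRE, a receptor subunit for the transmitter GABA, with 26.0 CPM in high-mitochondrial and 11.3 CPM in low-mitochondrial barcodes, the noncoding transcript Z83843.1 (41.2 and 19.1 CPM), PRTG (23.3 and 10.4 CPM), L3MBTL1 (28.3 and 14.0 CPM), PKDCC (20.4 and 9.74 CPM) and PABPC1L (23.8 and 11.1 CPM). Lower were LGALS1, the soluble lectin galectin-1, with 376 ± 111 CPM in high-mitochondrial and 1005 ± 324 CPM in low-mitochondrial barcodes (SD, n = 13; log2 fold change -1.39), and HMGA1, a small chromatin protein, with 105 CPM in high-mitochondrial and 272 CPM in low-mitochondrial barcodes (-1.40). FOSL1, a growth-induced transcription factor (-1.62), the calcium-binding protein CALB2 (-1.91), PAEP (-1.76), PHF19 (-1.43) and CAVIN3 (-1.33) fell too. The remaining genes that fell by this rule, TYMS (-1.38), UBE2T (-1.37), CDCA8 (-1.53) and CKAP2L (-1.32), serve DNA replication, DNA repair or mitosis.

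Cell-cycle transcripts had the lowest median of the 24 lists, and their difference changed with depth. All 27 tested G2 and M phase genes fell, 25 of them by 2-fold or more, with a median log2 fold change of -1.31. Of all genes tested, 25.5% were lower, and 0.975% were lower by 2-fold or more. Their summed level averaged 839.5 ± 308 CPM in high-mitochondrial barcodes and 1951 ± 656 CPM in low-mitochondrial barcodes (SD, n = 13). It was lower in 12 of 13 pairs, and higher only in HTO4+HTO9, at 1534 CPM in high-mitochondrial and 779 CPM in low-mitochondrial barcodes. UBE2C, which drives mitotic exit, averaged 33.1 CPM in high-mitochondrial and 128 CPM in low-mitochondrial barcodes (log2 fold change -2.13), and MKI67, the proliferation antigen, averaged 51.8 and 115 CPM (-1.26). S phase genes fell in 20 of 21 (median -0.53), against the same 25.5% of all genes. In both lists 0 genes were called higher by edgeR or DESeq2, and 0 at an unadjusted p below 0.05.

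Within a window of depth this fall was not seen. Among the 1619 high-mitochondrial and 815 low-mitochondrial barcodes with 2000 to 6000 nuclear UMIs, the summed G2 and M phase level was 740.5 CPM in high-mitochondrial and 539 CPM in low-mitochondrial barcodes, with a mean log2 ratio of 0.56 ± 0.75 (SD, n = 13), higher in 10 of 13 pairs. TOP2A, the DNA topoisomerase of dividing cells, had a log2 fold change of -1.12 over all barcodes and of 1.14 within this window (edgeR, adjusted p = 1.55e-06). CENPF, a kinetochore protein, likewise had 0.80. The summed S phase level also turned, to a log2 ratio of 0.56 ± 0.45. With each barcode thinned to 1000 nuclear UMIs, which left out 47 high-mitochondrial and 34 low-mitochondrial barcodes, the summed G2 and M phase level stayed lower, at -0.76 ± 0.69 in 11 of 13 pairs. In low-mitochondrial barcodes, the G2 and M phase level itself climbed with depth: it averaged 493 CPM at 4000 to 6000, 648 CPM at 6000 to 8000 and 1481 CPM at 8000 to 12000 nuclear UMIs, where 9 pairs had enough barcodes. The nuclear and cytosolic groups kept their direction in the window, with mean log2 ratios of the summed level of 0.69 ± 0.15 for nuclear long noncoding RNAs (higher in 13 of 13 pairs) and -0.29 ± 0.11 for cytosolic ribosomal proteins (lower in 13 of 13). Depth was not equal inside the window, where low-mitochondrial barcodes held more nuclear UMIs each in every pair. In HTO2+HTO5, 226 high-mitochondrial barcodes held 898893 nuclear UMIs and 128 low-mitochondrial barcodes held 624108. In narrower ranges of depth the differences varied. At 2000 to 4000 nuclear UMIs, with 7 pairs, the long noncoding RNAs stood at 0.79 and the ribosomal proteins at -0.43. At 4000 to 6000, 6000 to 8000 and 8000 to 12000 nuclear UMIs the long noncoding RNAs stood at 0.34, 0.28 and 0.42, against 0.98 over all barcodes, and the ribosomal proteins at -0.12, -0.057 and -0.079, against -0.25 over all barcodes. In these 3 ranges ribosomal proteins were higher in high-mitochondrial barcodes in 1 of 13, 3 of 13 and 1 of 9 pairs.

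**Figure D3:**
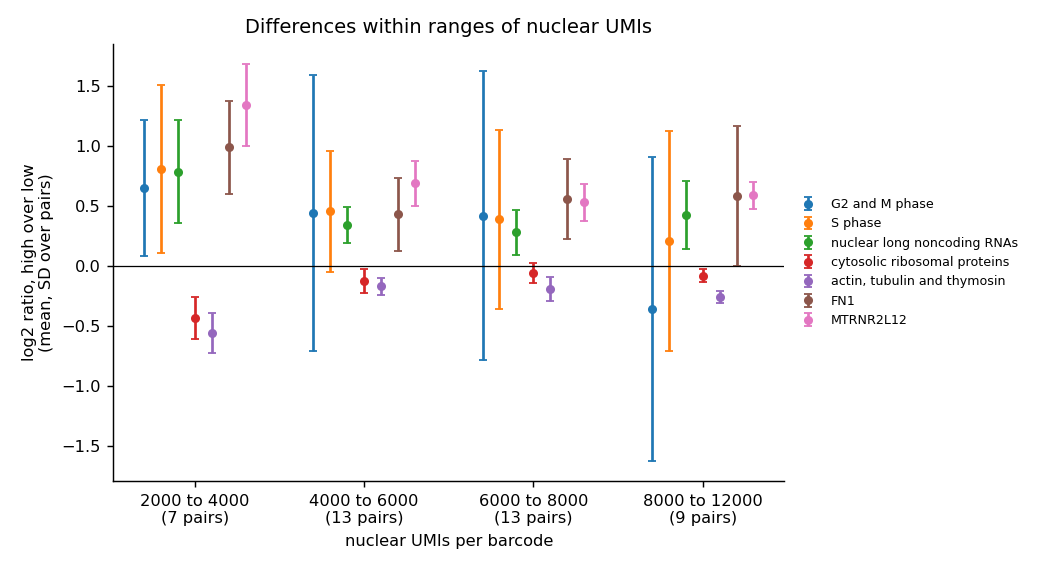
Mean log2 ratio of high-mitochondrial over low-mitochondrial levels within ranges of nuclear UMIs per barcode, with the SD over pairs that had at least 10 barcodes of each class. Nuclear long noncoding RNAs, FN1 and MTRNR2L12 lie above 0 and ribosomal and cytoskeletal transcripts below 0 in every range, while G2 and M phase lies at 0.65 in the lowest range and at -0.36 in the highest, with wide spread. MTRNR2L12 can hold reads of mitochondrial origin, whose share set the classes.

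Stress programmes were mixed, and their counts stand beside 25% higher and 25.5% lower among all genes tested. Immediate early and heat shock genes fell in 17 and rose in 6 of 28 (median -0.19), with the chaperones HSP90AA1 (-0.29) and HSPD1 (-0.43) lower in 13 of 13 pairs and FOSB (0.53) higher in 13 of 13. Targets of the integrated stress and unfolded protein responses fell in 5 and rose in 3 of 15 (median -0.15), with the folate enzyme MTHFD2 (-0.54) lower in 13 of 13 pairs. Genes of p53 and apoptosis fell in 7 and rose in 4 of 23 (median -0.05), with BAX (-0.14) and PMAIP1 (-0.34) lower and MDM2 (0.37) higher. Hypoxia genes fell in 4 and rose in 1 of 16 (median -0.10), where 25.5% of all genes fell, and replication-dependent histones fell in 7 and rose in 2 of 11 (median -0.31). At 2000 to 6000 nuclear UMIs the mean log2 ratio of the summed level was -0.51 ± 0.46 for hypoxia genes (lower in 12 of 13 pairs), against -0.10 over all barcodes. For histones it was 0.10 ± 0.30 in that window (higher in 6 of 13 pairs), against -0.46 over all barcodes. Hypoxia genes stood higher, not lower, at 40% to 50% mitochondrial UMIs than at 10% to 20%, as given below.

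The medians of the 6 cytokine-response lists lay between -0.11 and 0.20, and the order of pairs was close between the classes in 5 lists and looser for NF-kB genes. IFNg-induced guanylate-binding proteins, chemokines and transcription factors rose in 5 and fell in 9 of 37 tested genes (median 0.01), against 25% and 25.5% of all genes. Their summed level ranged over pairs from 2090 to 38721 CPM in high-mitochondrial barcodes and from 1974 to 42013 CPM in low-mitochondrial barcodes. Spearman's rho between the classes over the 13 pairs was 0.98, given as a description, since both classes of a pair share tumour, treatment and tagging. The highest pair stood 18.5-fold above the lowest in high-mitochondrial and 21.3-fold in low-mitochondrial barcodes.

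CXCL10, a chemokine induced by IFNg, ranged 238-fold between pairs in high-mitochondrial and 401-fold in low-mitochondrial barcodes. In HTO2+HTO8, the highest pair of the high-mitochondrial class, it stood at 8073 CPM in high-mitochondrial and 8377 CPM in low-mitochondrial barcodes. In HTO4+HTO9 it stood at 286 CPM in high-mitochondrial and 653 CPM in low-mitochondrial barcodes, and in HTO3+HTO6 at 66.7 CPM in high-mitochondrial and 35.5 CPM in low-mitochondrial barcodes. Over all pairs it was not called (log2 fold change 0.01), higher in high-mitochondrial barcodes in 8 of 13 pairs. The part that free RNA in the droplets plays in the levels of quiet pairs was not tested.

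IRF1, the transcription factor that relays IFNg (-0.19), and VAMP5 (-0.30) fell, while STAT2 (0.52) and PARP14 (0.27) were higher in 13 of 13 pairs. GBP1 (-0.13) and IDO1 (-0.01) were not called, and CD274, the checkpoint ligand PD-L1, was too low to test, with 214 UMIs in high-mitochondrial and 414 UMIs in low-mitochondrial barcodes. Genes that rose in this list had a median transcript length of 5047 bases, against 1626 bases for those that fell.

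Antigen presentation also kept its order of pairs between the classes. MHC class I genes rose in 8 and fell in 4 of 18 (median 0.11), against 25% and 25.5% of all genes, with a rho over pairs of 0.99. At 2000 to 6000 nuclear UMIs the list median turned to -0.056, and the summed level was higher in 3 of 13 pairs, at a mean log2 ratio of -0.13 ± 0.14. B2M, the light chain, was not called (-0.07). TAPBP, which loads peptides in the endoplasmic reticulum (0.44), was higher in 13 of 13 pairs, and the cytosolic proteasome activators PSME1 (-0.27) and PSME2 (-0.29) and the immunoproteasome subunit PSMB8 (-0.24) were lower in 13 of 13. MHC class II genes rose in 3 of 6 tested (median 0.20), and 0 fell by edgeR, by DESeq2 or at an unadjusted p below 0.05. CD74, the invariant chain, had a median pair level of 454 CPM in high-mitochondrial and 335 CPM in low-mitochondrial barcodes (log2 fold change 0.26, higher in 11 of 13 pairs), and was not called within the window of 2000 to 6000 nuclear UMIs (0.13). The rho over pairs was 0.97, and the ratio of highest to lowest pair was 27.9 in high-mitochondrial and 42.3 in low-mitochondrial barcodes.

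Interferon-stimulated genes shared with type I interferon rose in 5 and fell in 14 of 45 (median -0.11), against 25% and 25.5% of all genes. The mean log2 ratio of their summed level was -0.10 ± 0.17, lower in 9 of 13 pairs, and at 2000 to 6000 nuclear UMIs it was -0.30 ± 0.15, lower in 13 of 13. IFI27 averaged 4897 CPM in high-mitochondrial and 5476 CPM in low-mitochondrial barcodes (-0.15), while the ubiquitin-like ISG15 was not called, at 2619 and 2785 CPM (-0.06). The rho over pairs was 0.94, and the slope of the log2 level in high-mitochondrial on that in low-mitochondrial barcodes was 0.80, the lowest of the 6 lists.

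NF-kB feedback and signalling genes rose in 6 and fell in 6 of 28 (median -0.03), near the 25% and 25.5% of all genes, with a rho of 0.80, the lowest of the 6 lists, and the same 4 pairs at the top in both classes. The 8 lowest pairs lay close together, at 1716 to 2117 CPM in high-mitochondrial and 1584 to 2259 CPM in low-mitochondrial barcodes. The inhibitor NFKBIA averaged 400 CPM in high-mitochondrial and 480 CPM in low-mitochondrial barcodes (-0.31) and fell, as did GADD45B (-0.37), while TNFAIP2 (0.50, 13 of 13 pairs), NFKBIZ (0.55) and CFLAR, an inhibitor of caspase-8 (0.33), rose. TNFAIP2 ranged over pairs from 201 to 3862 CPM in high-mitochondrial and from 147 to 2368 CPM in low-mitochondrial barcodes. SOD2 (-0.02) and TNFAIP3 (0.07) were not called.

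TNFa chemokines, cytokines and adhesion genes rose in 9 and fell in 3 of 24 (median 0.07, rho 0.93), against 25% and 25.5% of all genes. The adhesion molecules VCAM1 (0.86, 13 of 13 pairs) and ICAM1 (0.34, 9 of 13 pairs) and the complement proteins C3 (0.77) and CFB (0.63) rose, and the secreted protease PLAU (-0.83) and the membrane-bound ligand LTB (-0.17) fell. VCAM1 averaged 457 ± 485 CPM in high-mitochondrial and 256 ± 282 CPM in low-mitochondrial barcodes (SD, n = 13), a spread set by differences between pairs. CXCL8 was not called (-0.14).

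**Figure D4:**
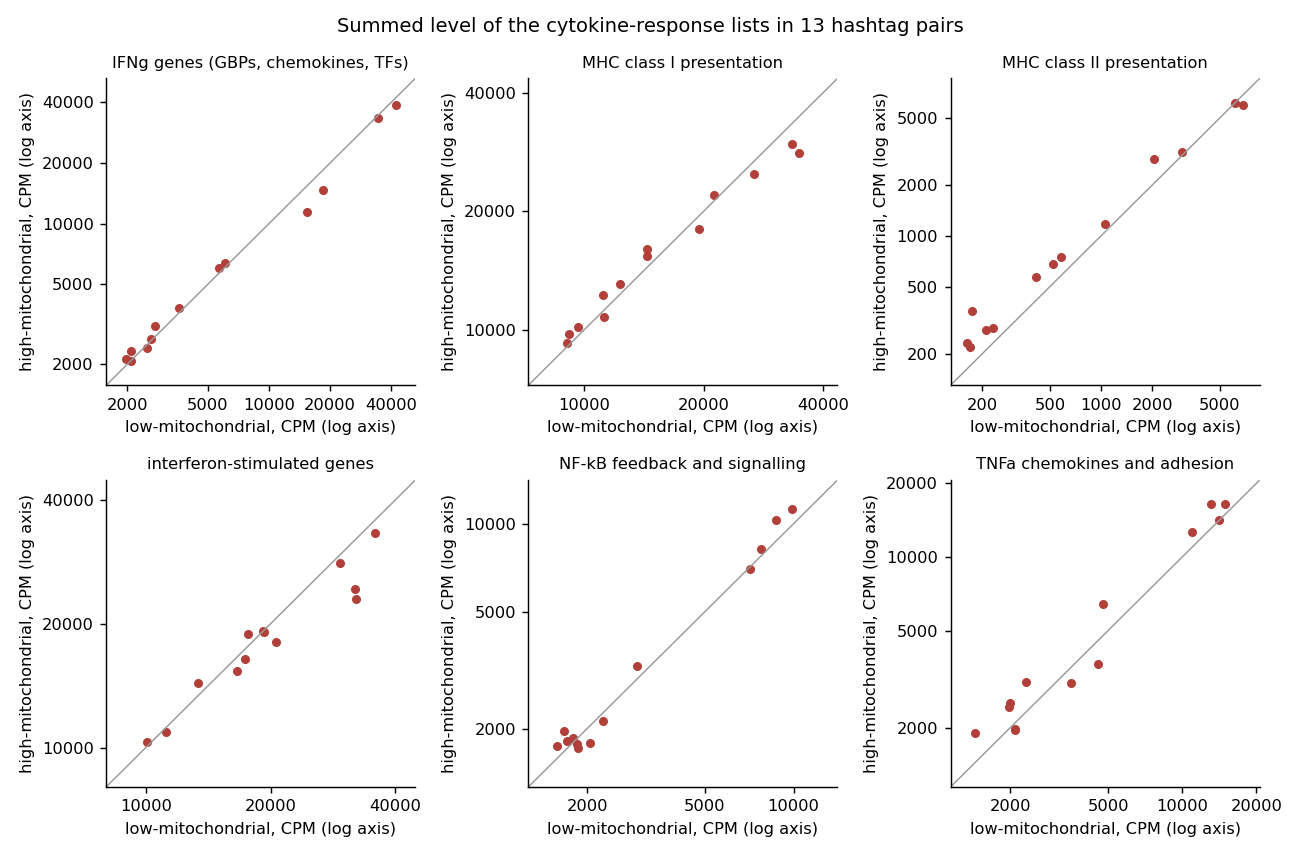
Summed level (CPM, log axes) of 6 cytokine-response lists in high-mitochondrial barcodes (vertical) against low-mitochondrial barcodes (horizontal), 1 point per hashtag pair, with the line of equal levels. The points rise along the line over ranges of 3.20-fold (MHC class I) to 27.9-fold (MHC class II) in high-mitochondrial barcodes, against 3.84-fold and 42.3-fold in low-mitochondrial barcodes. Slopes on the log2 scale ran from 0.80 (interferon-stimulated genes) to 1.05 (NF-kB genes), with 0.85 for MHC class I and 0.89 for MHC class II. The same 4 pairs are highest in both classes in each list.

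Gene by gene, the order over pairs was closer for cytokine-response genes than for others. A rho of 0.9 or more between the classes was found for 79 of 158 tested cytokine-response genes (50%), against 152 of 8971 other genes (1.69%). Among genes that differed 4-fold or more between pairs in low-mitochondrial barcodes, the shares were 54.8% of 126 cytokine-response genes and 7.28% of 797 others. Median rho was 0.90 in cytokine-response genes and 0.34 in the others. Wide differences between pairs make a high rho easier to reach, and few counts make it harder. The shares are not matched for abundance, and the part of either was not tested.

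Levels were also compared over ranges of the mitochondrial share. Depth fell as the share rose, and the parts of share and depth in these levels were not tested. Inside the low-mitochondrial class, long noncoding RNAs averaged 63553, 48968, 42432 and 34713 CPM at 2000 to 4000, 4000 to 6000, 6000 to 8000 and 8000 to 12000 nuclear UMIs. Over the same ranges, from 7, 13, 13 and 9 pairs, FN1 averaged 1286, 1540, 1078 and 790 CPM. Each pair was set against its own barcodes at 10% to 20%, with MALAT1 and the MTRNR2L genes left out of the total. MALAT1 stood 0.58 higher on the log2 scale at 20% to 30%, 1.55 at 30% to 40% and 2.37 at 40% to 50%, in 13 of 13 pairs each, and 2.78 at 50% to 60%. Cytosolic ribosomal proteins stood at -0.04, -0.31 and -0.65 over the 3 ranges of the high-mitochondrial class, and actin, tubulin and thymosin at -0.21, -0.48 and -0.86. FN1 reached 0.81 at 20% to 30% and changed little beyond 30% to 40%, at 1.32, 1.49 and 1.45.

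G2 and M phase genes did not follow this gradient. They stood at -1.14 already at 20% to 30%, where ribosomal proteins stood at -0.04, and at -1.06 and -0.92 in the next 2 ranges. Nuclear UMIs per barcode over the same ranges had medians of 7387 at 10% to 20%, 5568.5 at 20% to 30%, 2934 at 30% to 40% and 1898.5 at 40% to 50%.

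Cytokine-response lists parted ways with the share. NF-kB genes stood at 0.06, 0.37 and 0.65 over the 3 ranges of the high-mitochondrial class, and at 0.03, 0.25 and 0.42 with all nuclear UMIs in the total. They were higher in 13 of 13 pairs at 30% to 40% and at 40% to 50% on both scales. Between the classes at 2000 to 6000 nuclear UMIs, the NF-kB sum had a mean log2 ratio of 0.02 ± 0.12, higher in 8 of 13 pairs. TNFa genes stood at 0.18, 0.28 and 0.48 over the ranges of share, and at 0.15, 0.16 and 0.24 with all nuclear UMIs. Interferon-stimulated genes stood at 0.07, -0.15 and -0.31, and at 0.04, -0.27 and -0.55 with all nuclear UMIs, lower in 13 of 13 pairs at 40% to 50% on both scales. Targets of the integrated stress and unfolded protein responses reached 0.49 at 40% to 50%, or 0.26 with all nuclear UMIs. Hypoxia genes stood at -0.03, 0.31 and 0.49 over the 3 ranges, and at -0.06, 0.19 and 0.25 with all nuclear UMIs. At 40% to 50% they were higher in 12 of 13 pairs on both scales. The difference of 2 other lists depended on the scale. MHC class I genes stood at 0.21 at 40% to 50% without MALAT1 and the MTRNR2L genes in the total and at -0.03 with them, and endoplasmic reticulum chaperones stood at 0.24 without them and were higher in 6 of 13 pairs with them. On the full total, MALAT1 reached 2.13, FN1 1.26 and ribosomal proteins -0.89 at 40% to 50%.

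**Figure D5:**
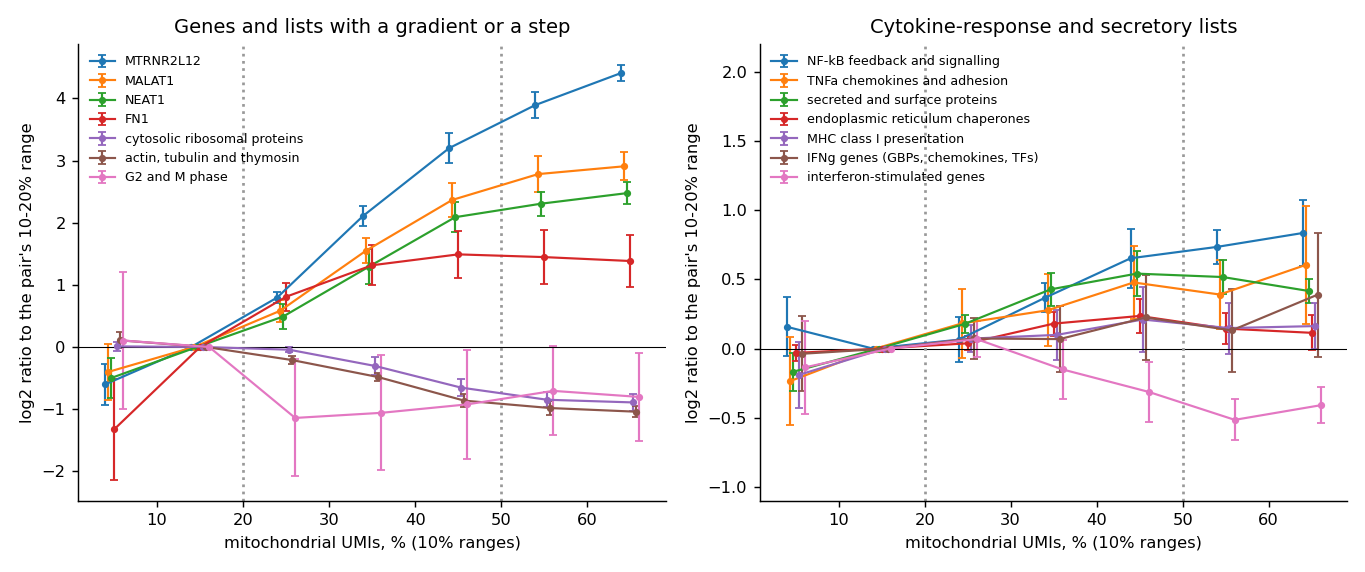
Mean log2 ratio (error bars, SD over pairs) of levels in ranges of 10% of mitochondrial share, against the same pair's barcodes at 10% to 20%, with MALAT1 and MTRNR2L genes left out of the total. MTRNR2L12 can hold reads of mitochondrial origin, whose share set the ranges. Dotted lines mark 20% and 50%; MTRNR2L12 and MALAT1 climb and ribosomal and cytoskeletal transcripts sink with the share, G2 and M phase steps to -1.14 at 20% to 30%, and in the right panel NF-kB genes climb to 0.65 and interferon-stimulated genes sink to -0.31 by 40% to 50%; with all nuclear UMIs in the total these 2 values are 0.42 and -0.55.

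Markers of other cell types were scarce in both classes. Fibroblast markers summed to a mean of 5.52 CPM in high-mitochondrial and 7.34 CPM in low-mitochondrial barcodes, T cell markers to 4.84 and 11.1 CPM, B cell markers to 0.485 and 0.622 CPM and erythroid markers to 0.0335 and 0.172 CPM, and no gene of these 4 lists was abundant enough to test. Endothelial markers summed to 52.5 CPM in high-mitochondrial and 43.4 CPM in low-mitochondrial barcodes, and macrophage or monocyte markers to 69.3 and 73.2 CPM. Neutrophil markers were almost all S100A9, a calcium-binding protein that epithelia also make, with 12.98 ± 8.20 CPM in high-mitochondrial and 76.4 ± 111 CPM in low-mitochondrial barcodes (SD, n = 13; log2 fold change -2.23), higher in high-mitochondrial barcodes in 5 of 13 pairs. The part of any of these in the results above was not tested.

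The 13 mitochondrial genes themselves, which set the classes, differed by small shares. MT-ND6, the gene with the largest relative shift, took 0.121% ± 0.0215 of mitochondrial UMIs in high-mitochondrial and 0.100% ± 0.0230 in low-mitochondrial barcodes, a mean log2 ratio of 0.29, higher in 12 of 13 pairs. MT-CO2 took 16.1% ± 0.222 of mitochondrial UMIs in high-mitochondrial and 17.4% ± 0.507 in low-mitochondrial barcodes, MT-CYB 11.0% ± 0.629 and 10.3% ± 0.422, and MT-ATP6 16.9% ± 0.387 and 16.0% ± 0.374 (SD, n = 13). MT-CYB and MT-ATP6 took the larger share in high-mitochondrial barcodes in 13 of 13 pairs, and MT-CO1 and MT-CO2 took the smaller share in 13 of 13.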

How the data were processed

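The deposited table holds UMI counts of genes and hashtags per barcode from 1 droplet library. Its header names Cell Ranger 5.0.1 as the counting tool, whereas version 2.1.1, with GRCh38, stands in the submitters' processing notes. The matrix holds 36588 nuclear and 13 mitochondrially encoded genes. No other value of the authors was used.

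Members and gene lists were chosen with earlier results of these data known, so counts over lists describe them and are no independent evidence. Barcodes were assigned to hashtag pairs and classes as given above, which leaves out droplets that mix pairs, and no doublet caller was run. Nuclear counts were summed per pair and class (26 sums) and fitted in R 4.3.3 with edgeR 4.0.16 (TMM, filterByExpr with a minimum count of 10 and a minimum total of 15, quasi-likelihood test with the pair as a block), adjusting over 9129 genes, while 27459 genes did not pass the filter. The pairs block the fit because both sums of a pair come from the same tagged cells. DESeq2 1.42.0 was an alternative. Pair ratios carry a prior of 0.5 counts.

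On simulated data with 9129 genes, 80 of 100 genes changed by a log2 fold of 0.5, 94 of 100 changed by 1 and 11 of 8929 unchanged genes were called. In the data 4610 of 9129 genes were called, so the simulation does not measure false calls where so many genes change. Intervals are exact at the 95% level. Summaries used pandas 2.3.3 and scipy 1.17.1 under Python 3.11.15, with Biopython 1.88 for alignments and matplotlib 3.10.9 for figures. Of 9129 genes, 9118 matched GENCODE 29, which gave lengths (of the principal transcript of a gene by its APPRIS tag, and the longest among equals), GC content, coordinates and sequences.

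Genes were named by rule: the 12 with the largest change in each direction among genes with a mean of 20 CPM or more in a class and the same direction in all pairs, the 3 most abundant of each list, and a set of cytokine-response genes. Some genes of the rule are not reported here. Other list members were named after their values were seen. Settings above 40%, without an upper limit, without MALAT1 and MTRNR2L genes, and by ranges of depth were chosen after seeing the data. Signal peptides were not searched, since no protein table was used here.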

Additional observations from a re-analysis of the deposited data

Results flagged for a closer look

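Hashtags outside the 13 pairs gave counts that no comparison used. HTO10 had 8418 counts over all barcodes, with a mean of 1.00 per high-mitochondrial and 1.05 per low-mitochondrial barcode, and HTO1 had 96 counts.

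The 1115 barcodes with a clear pair and more than 50% mitochondrial UMIs lie outside both classes. They carry a signal that was not part of the main comparison, with MALAT1 standing 2.78 higher on the log2 scale at 50% to 60% than in the same pair's barcodes at 10% to 20%.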

How the results depend on the processing

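High-mitochondrial over low-mitochondrial differences kept their direction for all genes called in the main comparison under RLE size factors (4537 of 4610 calls kept), DESeq2 (3758), no filter on low counts (3818) and no replicate block. Without the block by hashtag pair, 1583 genes were higher and 1707 lower, and 3268 of the 4610 calls were kept. Gene counts of the settings rest on unlike numbers of genes tested, with 9129 in the main comparison. These were 25009 with no filter, 3353 when thinned and 5146 at 2000 to 6000 nuclear UMIs. They were 6979 above 25% against at or below 15%, 9060 with the 35% limit, 5725 above 40% and 9352 without an upper limit. Leaving out 1 pair kept 89.97% to 96.2% of calls. It gave 20 to 39 genes higher by 2-fold and a median of -0.20 to -0.049 for stress and unfolded protein response targets (lowest size without HTO2+HTO7). With no filter, 177 genes were higher and 203 lower by 2-fold, and list medians moved to -0.32 (cytosolic ribosomal), -0.30 (respiratory chain), -0.51 (actin and tubulin), -0.039 (keratins, more members tested) and -0.054 (endoplasmic reticulum chaperones).

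Thinned to 1000 nuclear UMIs, 782 genes were higher and 786 lower, 40 and 6 of them by 2-fold, with fewer genes tested, 1416 of 2240 calls tested were kept and 101 had the other sign, and list medians were 0.89 (long noncoding), 0.23 (secreted and surface), -0.082 (immediate early and heat shock), 0.12 (stress response targets), 0.12 (NF-kB) and 0.38 (TNFa chemokines and adhesion). At 2000 to 6000 nuclear UMIs, 725 was the count of genes higher in high-mitochondrial barcodes and 788 that of genes lower in high-mitochondrial barcodes, 8 and 3 of them by 2-fold, with fewer genes and barcodes, and 1310 of 3082 calls tested were kept, while 292 had the other sign and 16 were called in the other direction. List medians there were -0.20 (mitochondrial ribosomal), -0.20 (proteasome), -0.32 (actin and tubulin), 0.27 (S phase, 3 members), 0.33 (G2 and M phase), -0.13 (immediate early and heat shock), -0.041 (stress response targets), 0.077 (p53 and apoptosis), -0.74 (hypoxia) and -0.056 (MHC class I).

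Above 25% against at or below 15%, 206 genes were higher by 2-fold, and medians were 0.98 (long noncoding), -0.37 (cytosolic ribosomal), -0.43 (translation factors), -0.46 (mitochondrial ribosomal), -0.34 (respiratory chain), -0.59 (glycolysis), -0.54 (proteasome), -0.65 (actin and tubulin), 0.21 (secreted and surface), -0.026 (stress response targets) and 0.13 (p53 and apoptosis). With an upper limit of 35%, 5 genes were higher by 2-fold, and medians were 0.31 (long noncoding), -0.13 (cytosolic ribosomal), -0.17 (translation factors), -0.20 (mitochondrial ribosomal), -0.11 (respiratory chain), -0.27 (glycolysis), -0.24 (proteasome) and -0.32 (actin and tubulin). A hashtag ratio of 8 moved stress response targets to -0.057.

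Above 40%, 587 genes were higher and 314 lower by 2-fold, 2707 of 3348 calls tested were kept, 114 had the other sign and 22 were called in the other direction, and medians were 1.73 (long noncoding), -0.77 (cytosolic ribosomal), -0.81 (translation factors), -0.86 (mitochondrial ribosomal), -0.78 (respiratory chain), -0.99 (glycolysis), -0.82 (proteasome), -1.05 (actin and tubulin), -0.67 (keratins), 0.12 (endoplasmic reticulum chaperones), 0.44 (secreted and surface), 0.022 (immediate early and heat shock), 0.28 (stress response targets), 0.31 (MHC class I), 0.21 (NF-kB) and 0.40 (TNFa chemokines and adhesion). Without an upper limit, 96 genes were higher by 2-fold, and medians were 0.78 (long noncoding), -0.33 (cytosolic ribosomal), -0.37 (translation factors), -0.30 (respiratory chain), -0.53 (actin and tubulin) and -0.060 (stress response targets).

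The order over pairs had a rho of 0.91 (IFNg), 0.95 (MHC class I), 0.94 (MHC class II) and 0.72 (TNFa) when a list was the median of its members, 0.95 (IFNg) and 0.93 (MHC class I) above 40%, 0.96 (MHC class I) and 0.93 (MHC class II) at 2000 to 6000 nuclear UMIs, 0.96 (MHC class I) and 0.95 (MHC class II) above 25% against at or below 15%, 0.93 (MHC class II) when thinned, and 0.94 (MHC class II) at a hashtag ratio of 8.

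Among named genes, 10 values changed sign in a called comparison. At 2000 to 6000 nuclear UMIs these were PCNA (0.27), TOP2A (1.14), CENPF (0.80) and HLA-B (-0.056). Above 40% they were NDUFA13 (-0.27), HSP90B1 (0.20), SLC3A2 (0.43), BIRC3 (0.70) and P4HA2 (0.61), and when thinned BIRC3 (0.20). The causes were not tested. The sums of 468084 nuclear UMIs in the shallowest pair and class limit what can be called for genes of few CPM.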
